A study of Mus musculus with 2 samples.

Results

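Tshz1/Pbx3 neurons were defined in single-cell RNA-seq data as inhibitory cells of the embryonic forebrain that carried mRNA of both Tshz1 and Pbx3. Tshz1 encodes a teashirt zinc-finger transcription factor, and Pbx3 encodes a homeodomain transcription factor of the TALE class. A cell was a member if it had at least 1 unique molecular identifier (UMI, the tag that marks 1 captured mRNA molecule) of Tshz1 and at least 1 of Pbx3. It further had at least 2 UMIs summed over 4 inhibitory genes, namely Gad1, Gad2, Dlx1 and Dlx6os1. In addition, 7 genes of other lineages or of dividing cells, namely Prox1, Lhx6, Isl1, Drd2, Top2a, Eomes and Neurod1, had to be at 0. Of 16348 cells that passed the filters of 1500 to 60000 UMIs and under 10% mitochondrial UMIs, 492 met the rule. These were 257 of 8139 passing cells in WT replicate 1 and 235 of 8209 in WT replicate 6. The members' share was therefore 3.16% in WT replicate 1, with a 95% Wilson interval of 2.80 to 3.56%, and 2.86% in WT replicate 6, with an interval of 2.52 to 3.25%. Its mean over the libraries was 3.01% ± 0.209 (SD, n = 2), and the intervals cover counting error only.

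The series was designed around the removal of the histone methyltransferase gene Dot1l by Emx1-Cre, a Cre line active in progenitors of the dorsal telencephalon. The 2 libraries used here came from embryos labelled WT at embryonic day 16.5, with the dorsal telencephalon as the dissected tissue and brain hemispheres as the labelled one. The paper describes its single-cell embryos of this age as C57BL6/J, whereas the series design speaks of controls of the knockout. Which of the Cre and floxed alleles the WT embryos carried is not given in the sources used here, and knockout embryos were not analysed here. Every comparison below is between cell classes within these WT libraries.

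The lateral ganglionic eminence is a ventral progenitor zone whose ventral portion gives rise to striatal projection neurons. Its dorsal portion is known to produce olfactory bulb interneurons, which travel along the rostral migratory stream, and intercalated cells of the amygdala. Neurons of this dorsal lineage are commonly recognised by transcription factors such as Meis2, Sp8, Etv1, Pax6 and Tshz1, and Foxp2 is known from intercalated cells. Interneurons of the cortex come instead from the medial ganglionic eminence (MGE), marked by Lhx6, and the caudal ganglionic eminence (CGE), marked by Prox1. TALE homeodomain proteins of the Pbx and Meis groups bind DNA together as complexes.

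The libraries held 14136 and 13046 called cells with 74930397 and 68964234 UMIs. They shared 59 cell barcodes, 26 of them among passing cells. Over passing cells the UMIs of the X-linked transcript Xist numbered 71121 and 8, and those of Y-linked Ddx3y 2 and 2000, so the libraries came from different embryos. The members contributed 1494591 and 1144714 UMIs, with a median of 5159 and 4092 UMIs per cell. Their summed counts differed between libraries by more than the drawing of single UMIs would give, with a chi-square of 2.16 per degree of freedom over 18540 genes. Which cells were drawn also enters this value, so it is no measure of the embryos alone. With 2 libraries, p-values measure the spread between these embryos alone. Levels below are UMIs per 1000000 UMIs of a class (CPM), given for WT replicate 1 first and WT replicate 6 second, and they compare 1 gene between classes, never genes with each other.

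Members were set against 4 reference classes of passing cells. Other inhibitory cells were 3815 non-members with at least 2 UMIs of the 4 inhibitory genes and with Top2a, Eomes and Neurod1 at 0. Among them, 810 striatal-type cells had Isl1 or Drd2 without Prox1 and Lhx6, 432 CGE-type cells had Prox1 without Lhx6, Isl1 and Drd2, and 725 MGE-type cells had Lhx6 without the other 3. The last class was all 15856 other passing cells, which contains the former ones. All comparisons share the members' own sums and are not independent of each other. Cells scored as doublets by a simulation method were kept, and they made up 42 (8.54%) of the members and 361 (9.46%) of other inhibitory cells.

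Members were chosen by their UMIs of the 13 genes of the rule, whose values are a description and carry no test. Tshz1 (ENSMUSG00000046982 in the files) stood at 571 and 722 CPM in members against 53.0 and 66.7 CPM in other inhibitory cells. Pbx3, at chr2:34171457-34372045 on mm10, stood at 3578 and 3802 against 616 and 612 CPM. Both genes were high in members of both libraries by construction of the rule. Of the inhibitory genes, the glutamate decarboxylase gene Gad2 stood at 518 and 537 CPM in members and 520.3 and 572 CPM in other inhibitory cells. The noncoding transcript Dlx6os1 stood at 975 and 1095 CPM in members and 854 and 955 CPM in other inhibitory cells. Both classes had to carry the inhibitory genes, so the likeness of these levels follows in part from their definitions.

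Grm8, Foxp2 and Sox2ot are the further markers attached to this cell type, and all 3 were higher in the members than in other inhibitory cells in both libraries. Because they were chosen with these cells in view, their levels are likewise given without a test. Grm8, a presynaptic metabotropic glutamate receptor gene at chr6:27275121-28135146, stood at 524 and 563 CPM in members and 60.5 and 64.2 CPM in other inhibitory cells. It was at 50.7 and 52.6 CPM in striatal-type, 50.3 and 39.9 CPM in CGE-type and 48.4 and 44.4 CPM in MGE-type cells, so that no other class came near the members. Foxp2, a forkhead transcription factor gene at chr6:14901349-15441977, stood at 2029 and 2184 CPM in members, 1226 and 1312 CPM in striatal-type cells, 356 and 339 CPM in CGE-type cells and 152 and 125 CPM in MGE-type cells. The order members, striatal type, CGE type, MGE type was the same in both libraries. Sox2ot, the long noncoding transcript that spans Sox2 at chr3:34560381-34677993, did not set the members apart from CGE-type cells. It stood at 4132 and 4642 CPM in members and 3901 and 4477 CPM in CGE-type cells, values that overlap between the classes, and at 2879 and 3122 CPM in MGE-type and 1062 and 1401 CPM in striatal-type cells.

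The name dorsal LGE-type was checked against genes of that lineage that the rule did not read. Of 12 such genes tested against other inhibitory cells, 5 were higher and 1 was lower, as given below with their tests. The higher genes were Meis2, Etv1, Sp8, Pax6 and Vax1. Over all genes tested in that comparison, 1.79% were higher and 1.56% lower. With the genes that members must lack absent from both classes, Pax6 and Vax1 lost their calls (adjusted p = 0.485 and 0.0844 in edgeR). The lower gene, Calb1, lost its call there too (adjusted p = 0.0742 in edgeR), while Meis2, Etv1 and Sp8 kept theirs. Sp8 passed against striatal-type cells but not against CGE-type cells (adjusted p = 0.961 in edgeR). Meis2 passed against CGE-type cells but not against striatal-type cells (adjusted p = 0.208 in edgeR), and Etv1 passed against both. Pax6, at 37.5 and 37.6 CPM in members, likewise passed against striatal-type cells but not against CGE-type cells (adjusted p = 0.695 in edgeR). Sp8 stood at 52.9 and 66.4 CPM in members. The members also carried Six3 and Bcl11b, which are known from striatal neurons as well. The lineage itself was not traced, and the cells are called Tshz1/Pbx3 neurons here.

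**Figure D1:**
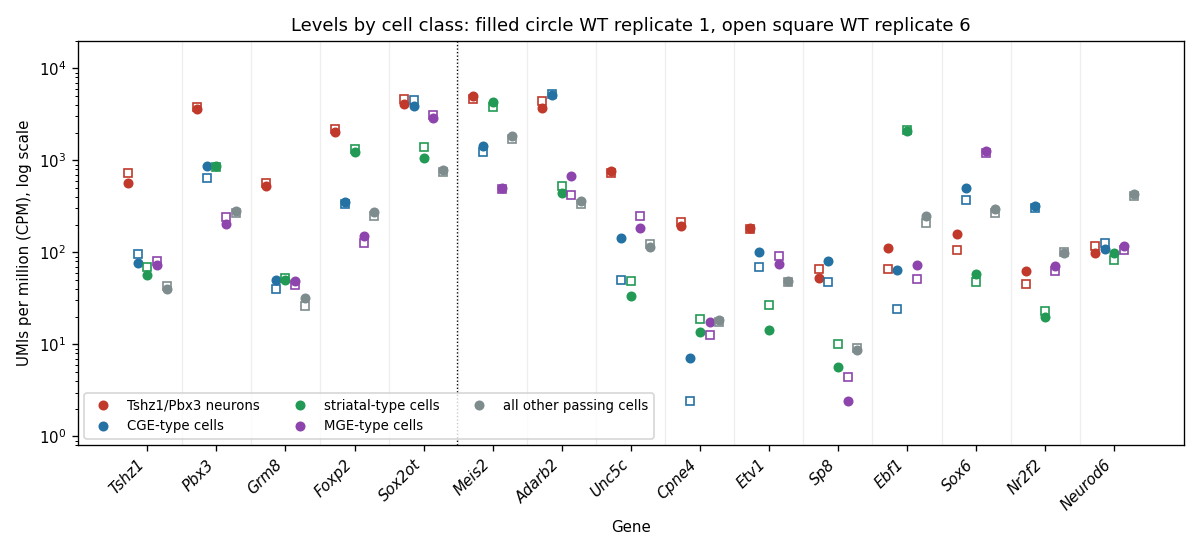
Levels of 15 genes in CPM (log axis) in Tshz1/Pbx3 neurons and 4 other classes, with WT replicate 1 as filled circles and WT replicate 6 as open squares. The 5 genes left of the dotted line chose or accompany the members, and a reader should see Unc5c and Cpne4 high in the members, Meis2 near the striatal-type level and Adarb2 near the CGE-type level.

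In shares of cells, Grm8 was detected in 176 of 492 members (35.8%), Foxp2 in 348 (70.7%) and Sox2ot in 472 (95.9%). After each cell was thinned to 1500 UMIs the shares were 28.9%, 60.6% and 92.3%, against 4.27%, 25.4% and 73.2% of other inhibitory cells. Microglia, taken as a background, had a Grm8 UMI in 2.12%, a Foxp2 UMI in 5.29% and a Sox2ot UMI in 10.6% of 189 cells after the same thinning. Cells scored as doublets were kept among microglia, and free RNA was not told apart from other sources of these UMIs. Their median depth before thinning was 7957 UMIs against 4718 in members. Tshz1 itself was present in 4.76% of thinned microglia and Pbx3 in 15.9%, against 61.2% and 85.2% of thinned members. A single UMI of either gene can therefore occur in a cell of another kind, and Pbx3 more often than Tshz1.

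The rule was met by narrow margins in many cells. Tshz1 was at exactly 1 UMI in 183 members (37.2%), Pbx3 at exactly 1 UMI in 51 (10.4%), and both at 1 UMI in 33. The inhibitory sum was exactly 2 in 34 members and had a median of 9, and 39 members had 2000 UMIs or fewer. In the 33 members with 1 UMI of each gene, Grm8 stood at 40.6 CPM, Foxp2 at 271 CPM and Meis2 at 2735 CPM over both libraries. In the 291 members with at least 2 UMIs of both these were 653, 2986 and 5681 CPM. Libraries were pooled here, and in the 33 members Grm8 rests on 6 UMIs and Foxp2 on 40. The levels of these markers were thus higher in members with more UMIs of the genes that chose them. Just outside the rule, 45 cells had an inhibitory sum of 1 and met the rest, and 438 cells failed through 1 of the 7 genes required at 0. Among these, Top2a alone accounted for 190 cells, Prox1 for 70, Isl1 for 51, Lhx6 for 40, Drd2 for 34, Eomes for 28 and Neurod1 for 25.

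Among the 2165 inhibitory cells with all 7 genes at 0, 492 had both Tshz1 and Pbx3, 708 had Pbx3 without Tshz1, 179 had Tshz1 without Pbx3 and 786 had neither. Grm8 stood at 524 and 563 CPM with both genes, 120.3 and 150.1 CPM with Pbx3 alone, 59.3 and 39.4 CPM with Tshz1 alone and 38.3 and 46.2 CPM with neither. Cells with Pbx3 alone thus held more Grm8 than those with Tshz1 alone or neither, and the last 2 overlapped. Foxp2 stood at 2029 and 2184 CPM with both, 755 and 628 CPM with Pbx3 alone, 193 and 317 CPM with Tshz1 alone and 141 and 151 CPM with neither. Meis2, a TALE homeodomain gene, stood at 4954 and 4592 CPM with both, 3083 and 3074 CPM with Pbx3 alone, 2738 and 2525 CPM with Tshz1 alone and 1536 and 1525 CPM with neither. The 4 sets differed in median depth, at 4718, 3288, 4170 and 2852.5 UMIs, and the part of depth in these differences was not tested.

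Clustering of all passing cells without the 13 genes of the rule placed most members in 2 of 32 clusters. The first of them, cluster 10, held 261 members (134 and 127 by library) among its 542 cells and was led by Grm8, Adarb2, Sdk2, Cpne4 and Unc5c. The second, cluster 12, held 98 members (55 and 43) among 756 cells and was led by genes such as Slc18a2, Ccnd2 and Sox2ot. Together they held 359 members (73.0%), and the other 133 were spread over further clusters. The most in any other cluster was 22. Since the clustering read all genes but those of the rule, levels by cluster are a description.

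**Figure D2:**
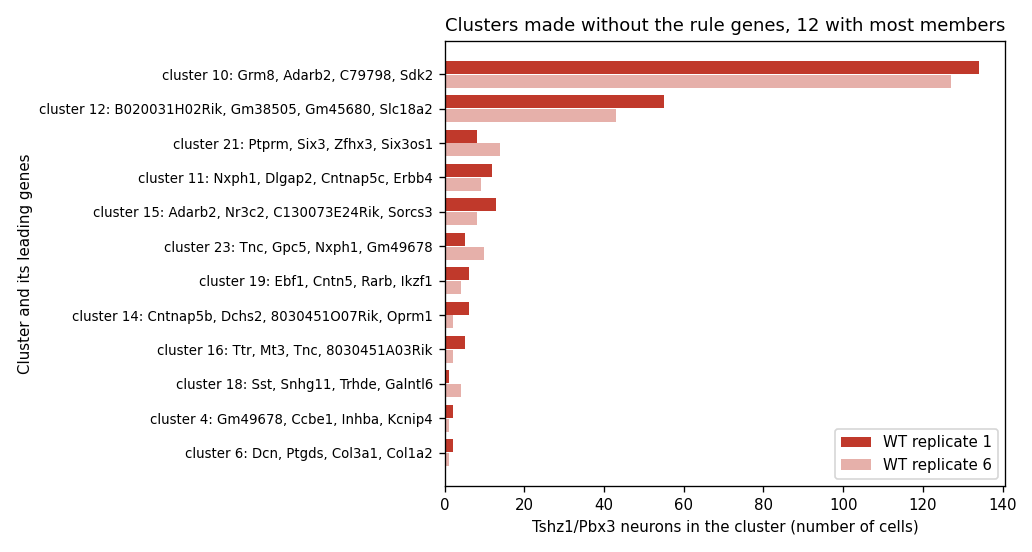
Number of Tshz1/Pbx3 neurons (horizontal axis, cells) in the 12 clusters that hold most of them, by library, each cluster labelled with its number and 4 leading genes. Cluster 10 holds 134 and 127 members and cluster 12 holds 55 and 43, while no other cluster exceeds 14 in either library.

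Members of cluster 10 carried Grm8 at 1066 and 1105 CPM, against 19.3 and 5.64 CPM in members of cluster 12 and 77.0 and 149 CPM in members elsewhere. Unc5c, encoding a netrin receptor, stood at 1546 and 1361 CPM in cluster 10, 81.2 and 67.6 CPM in cluster 12 and 121 and 234 CPM elsewhere. Adarb2, a gene of the RNA-editing enzyme family known from CGE interneurons, stood at 6246 and 6936 CPM in cluster 10, 1148 and 1437 CPM in cluster 12 and 1589 and 2599 CPM elsewhere. The olfactory bulb lineage factors Sp8 and Etv1 were also highest in cluster 10. Sp8 stood at 98.5 and 107 CPM in cluster 10, 23.2 and 73.3 CPM in cluster 12 and 9.16 and 15.8 CPM elsewhere. Etv1 stood at 332 and 304 CPM in cluster 10, 65.7 and 214 CPM in cluster 12 and 56.8 and 20.3 CPM elsewhere. In cluster 12 the 2 libraries lay far apart for both genes.

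Members of cluster 12 were instead high in other regulators. Six3, a homeobox gene known from striatal and other ventral neurons, stood at 537 and 411 CPM there against 88.4 and 47.8 CPM in cluster 10 and 150.3 and 173 CPM elsewhere. Tle4, a transcriptional corepressor gene, stood at 677 and 1234 CPM in cluster 12, 225 and 199 CPM in cluster 10 and 233 and 319.8 CPM elsewhere. Dkk2, a secreted Wnt modulator gene, stood at 73.5 and 90.2 CPM in cluster 12, 1.45 and 1.91 CPM in cluster 10 and 27.5 and 11.3 CPM elsewhere. The neuregulin receptor gene Erbb4 went the other way, with 1245 and 1459.5 CPM in cluster 12 and 8130.3 and 9302 CPM in cluster 10. Meis2 and Foxp2 were high in both clusters. Meis2 stood at 6117 and 5793 CPM in cluster 10 and 5927 and 5562 CPM in cluster 12, with overlapping values, and Foxp2 at 2958 and 3209 CPM in cluster 10 and 2335 and 2722 CPM in cluster 12.

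Members outside these clusters carried less of the defining markers and more of other cells' genes. Foxp2 stood at 709 and 761 CPM there. Ebf1, a transcription factor gene of striatal projection neurons, stood at 291 and 158 CPM against 7.24 and 7.64 CPM in cluster 10. Neurod6, a gene of cortical excitatory neurons, stood at 202 and 243 CPM against 37.7 and 44.0 CPM in cluster 10. Fabp7, a fatty-acid-binding protein gene of radial glia, stood at 935 and 1016 against 225 and 159 CPM. Of these 133 members 38 (28.6%) were scored as doublets, against 4 (1.53%) in cluster 10 and 0 of 98 in cluster 12, and their median depth was 6074 UMIs against 4201 and 4291. Whether doublets account for the foreign genes was not tested. In all, 139 members (28.3%) had a UMI of Neurod2, Neurod6, Slc17a6 or Slc17a7, genes of excitatory neurons.

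Conversely, 281 cells of cluster 10 were not members. Counted by the first condition they failed, 99 had a UMI of a gene required at 0 and 104 had Pbx3 without Tshz1. A further 40 had neither Tshz1 nor Pbx3, 20 had an inhibitory sum under 2 and 18 had Tshz1 without Pbx3. The cells with Pbx3 alone had a median of 2703 UMIs. In cluster 12 the commonest reason was a gene required at 0, in 389 of 658 non-members.

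Against other inhibitory cells, the members had more Meis2, Adarb2, Robo2 and Unc5c, and less of the genes that mark striatal and MGE neurons, such as Ebf1, Foxp1, Sox6 and Maf. Of 13852 genes tested without the rule genes and given markers, 248 (1.79%) were higher and 216 (1.56%) were lower in members at an adjusted p under 0.05 (edgeR quasi-likelihood test on UMIs summed per library, Benjamini-Hochberg). With the library as a block the same comparison called 491 (3.54%) higher and 489 (3.53%) lower, 980 in all. The values below are log2 differences, members minus other inhibitory cells, ± SE. In every comparison this SE was the absolute log2 difference divided by the square root of the F statistic of the test. It thus restates the test and is no separate measure of spread. Other inhibitory cells may carry Prox1, Lhx6, Isl1 or Drd2, which members may not, so genes that accompany these 4 differ in part through the rule. When the 7 genes had to be at 0 in both classes, 181 (1.49%) of 12125 genes were higher and 161 (1.33%) lower, 342 in all.

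**Figure D3:**
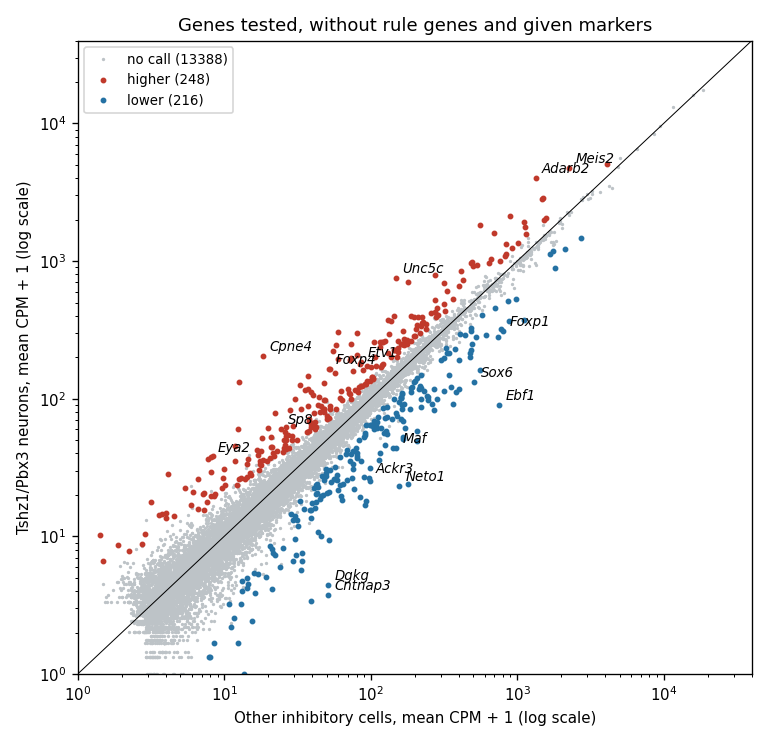
Mean CPM + 1 over 2 libraries in other inhibitory cells (horizontal, log axis) and in Tshz1/Pbx3 neurons (vertical, log axis), 1 point per gene tested, with 248 genes called higher in red and 216 called lower in blue. Among the labelled genes Cpne4 lies farthest above the line of equal levels, and Cntnap3, Dgkg and Ebf1 farthest below.

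Among the largest rises was Cpne4, a copine gene of calcium-dependent membrane binding at chr9:104566701-105034544. It stood at 195 and 212 CPM in members and 18.9 and 16.0 CPM in other inhibitory cells, a difference of 3.58 ± 0.12 (adjusted p = 2.13e-06 in edgeR). Unc5c at chr3:141465564-141834924 stood at 772 and 723 against 149 and 146 CPM, a difference of 2.39 ± 0.10 (adjusted p = 1.21e-05 in edgeR). In both genes the member values lay far above the others and close to each other. Il1rapl2, which encodes a synaptic adhesion protein related to the interleukin-1 receptor, was at 62.2 and 198 against 13.3 and 9.83 CPM. Its difference was 3.48 ± 0.43 (adjusted p = 0.00257 in edgeR), with both member values above the others but far apart. The related coreceptor gene Il1rap was at 28.1 and 26.2 against 4.83 and 1.46 CPM, a difference of 3.12 ± 0.46 (adjusted p = 0.00619 in edgeR).

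Further rises were Gng4, a G-protein gamma subunit gene, at 31.4 and 39.3 against 6.44 and 7.01 CPM, and Eya2, a transcriptional coactivator gene, at 36.1 and 36.7 against 5.96 and 8.36 CPM. Gpr26, an orphan receptor gene, was at 13.4 and 29.7 against 4.26 and 4.50 CPM and the long noncoding gene Gm28905 at 28.1 and 46.3 against 7.95 and 6.90 CPM. The differences were 2.42 for Gng4, 2.39 for Eya2, 2.28 for Gpr26 and 2.33 for Gm28905, and the classes did not overlap in these 4 genes. The last 2 of the 10 largest rises stand next to the genes that chose the cells. C79798 overlaps Pbx3 on the opposite strand and was at 306 and 301 against 68.4 and 49.6 CPM. Zadh2 neighbours Tshz1 on the opposite strand and was at 51.5 and 67.3 against 10.9 and 12.1 CPM. Whether strand was used in counting is not stated in the sources used here, so both are given without a p-value, and they may follow the rule.

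Several of these genes were high in cluster 10 alone. Cpne4 stood at 406 and 436 CPM in its members and 3.87 and 0 CPM in members of cluster 12, and Gng4 at 66.6 and 78.4 CPM in cluster 10 and 3.87 and 0 CPM in cluster 12. Il1rap overlapped between the clusters, at 40.6 and 19.1 CPM in cluster 10 and 23.2 and 39.4 CPM in cluster 12.

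The deepest falls were Cntnap3, a contactin-associated adhesion gene, Sfta3-ps, a noncoding gene beside Nkx2-1, and Dgkg, a diacylglycerol kinase gene. Cntnap3 had 3 and 4 UMIs in members, or 2.01 and 3.49 CPM, against 47.5 and 52.3 CPM in other inhibitory cells (adjusted p = 7.36e-05 in edgeR). Sfta3-ps had 2 and 4 UMIs in members and stood at 42.6 and 33.5 CPM in the others (adjusted p = 0.000653 in edgeR). Dgkg had 9 and 1 UMIs in members and stood at 46.2 and 54.7 CPM in the others (adjusted p = 0.000742 in edgeR). With so few UMIs no fold is given for these 3. Ebf1 at chr11:44618100-45008096 was well measured, at 110.4 and 66.4 CPM in members against 767 and 735 CPM in other inhibitory cells, a difference of -3.03 ± 0.20 (adjusted p = 6.83e-05 in edgeR).

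The other falls named by the same rule included genes of synaptic proteins. Neto1, a kainate-receptor auxiliary subunit gene, differed by -2.73 ± 0.18, at 26.1 and 18.3 against 169 and 142 CPM. Rph3a, a synaptic vesicle protein gene, differed by -2.55 ± 0.23, and Cacng3, an AMPA-receptor auxiliary subunit gene, by -2.67 ± 0.31. Sgcz, a sarcoglycan gene, differed by -2.87 ± 0.25. Ikzf1, a zinc-finger transcription factor gene of striatal neurons, had 8 and 1 UMIs in members against 22.8 and 17.6 CPM in the others (adjusted p = 0.0212 in edgeR), and its call was lost with the 7 genes at 0 in both classes (adjusted p = 0.316). Cldn5, a tight-junction gene of endothelial cells, had 5 and 9 UMIs in members against 37.5 and 29.0 CPM in the others (adjusted p = 0.00405 in edgeR), a call that was lost without cells scored as doublets. With so few UMIs no fold is given for Ikzf1 and Cldn5.

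Of 7 TALE homeodomain genes listed beside Pbx3, 2 were higher and none was lower, with a median difference of 0.20, where the median over all genes was close to 0. Meis2 at chr2:115861264-116067537 stood at 4954 and 4592 CPM in members against 2341 and 2163 CPM, a difference of 1.13 ± 0.09 (adjusted p = 0.000174 in edgeR). Meis1 was at 310.5 and 437 against 123 and 138 CPM, a difference of 1.56 ± 0.15 (adjusted p = 0.000552). In both genes the 2 member values exceeded both values of the other inhibitory cells. Pbx2, Pbx4, Meis3, Pknox1 and Pknox2 did not pass the test.

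The relatives of Tshz1 and Foxp2 moved in different directions. Tshz3, another teashirt gene, was lower in members, at 34.8 and 33.2 against 92.9 and 76.4 CPM and a difference of -1.27 ± 0.16 (adjusted p = 0.00291 in edgeR). Tshz2 was at 169 and 132 against 217 and 238 CPM and missed the threshold (adjusted p = 0.0613), although it passed with the library as a block (adjusted p = 2.46e-06). With the 7 genes at 0 in both classes Tshz2 differed by -0.21 (adjusted p = 0.587 in edgeR). Foxp4 rose to 132 and 197 against 50.8 and 51.0 CPM, a difference of 1.71 ± 0.16 (adjusted p = 0.000437). Foxp1, which is prominent in striatal neurons, was lower, at 361 and 256 against 853 and 740.5 CPM and -1.32 ± 0.16 (adjusted p = 0.00234).

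The list of dorsal LGE and olfactory bulb lineage genes had 5 of 12 tested members higher and 1 lower, with a median difference of 0.76. Beside Meis2 these were Sp8, Etv1, Pax6 and Vax1, all transcription factor genes. Etv1 at chr12:38780082-38870483 was at 185 and 180.0 against 86.8 and 83.2 CPM, a difference of 1.15 ± 0.09 (adjusted p = 0.000221 in edgeR). Sp8 at chr12:118846288-118852578 was at 52.9 and 66.4 against 23.2 and 23.5 CPM, a difference of 1.38 ± 0.15 (adjusted p = 0.00107). Pax6 and Vax1 were low in both classes, with differences of 0.88 ± 0.19 (adjusted p = 0.0451) for Pax6 and 1.40 ± 0.30 (adjusted p = 0.0384) for Vax1, and neither call held when members needed 2 UMIs of Tshz1 and of Pbx3. Calb1, the calbindin gene of a subset of bulb interneurons, was lower at 14.7 and 9.61 against 31.1 and 30.1 CPM, a call lost with the 7 genes at 0 in both classes (adjusted p = 0.0742 in edgeR). Sp9, a close relative of Sp8, was at 167 and 190.4 CPM in members and 145 and 158 CPM in the others and did not pass (adjusted p = 0.279). Zic1 and Prokr2, a zinc-finger gene and the receptor gene for prokineticin, missed the threshold and passed with the library as a block (adjusted p = 0.00704 and 0.0219), and Prokr2 was higher in 1 library alone, at 9.37 and 26.2 against 10.0 and 7.01 CPM.

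Of the general GABAergic genes outside the rule, none of Slc32a1, Dlx2, Dlx5 and Dlx6 was called in edgeR. Over all genes tested, 1.79% were higher and 1.56% lower. Both classes had to carry at least 2 UMIs of the 4 inhibitory genes, so this likeness follows in part from how they were chosen. Dlx6 also overlaps Dlx6os1, a gene of the rule, on the opposite strand. Dlx5 missed the threshold and passed as higher with the library as a block (adjusted p = 0.0406). Of 4 SoxB genes tested, Sox2 was higher, at 253 and 212 against 147 and 156 CPM and 0.67 ± 0.11 (adjusted p = 0.0121), and it lies inside Sox2ot on the same strand, so that reads of the 2 genes may not have been told apart.

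Guidance receptors moved in both directions. Of 20 tested, 2 were higher and 7 lower, with a median difference of -0.35. Beside Unc5c, Robo2, a receptor for Slit proteins, was higher at 2727 and 2977 against 1474 and 1539 CPM, a difference of 0.96 ± 0.08 (adjusted p = 0.000322 in edgeR). Its paralogue Robo1 was lower at 1219 and 1140.0 against 1741 and 1755 CPM, a difference of -0.53 ± 0.09 (adjusted p = 0.0119) that was no longer seen with the 7 genes at 0 in both classes (adjusted p = 0.998). Ackr3, the scavenging receptor for the chemokine Cxcl12 in tangentially migrating interneurons, was lower at 26.1 and 25.3 against 88.7 and 104 CPM, a difference of -1.86 ± 0.15 (adjusted p = 0.000225). Unc5d differed by -1.07 ± 0.15 and the ephrin receptor gene Epha5 by -0.98 ± 0.12, and Nrp1, Epha3 and Ephb1 were also lower. With the library as a block Cxcr4, Epha4 and Epha7 were lower too. Erbb4 did not pass the test, at 5360.0 and 5928 against 4859.9 and 5247 CPM (adjusted p = 0.309), but it was higher by 0.52 with the 7 genes at 0 in both classes (adjusted p = 0.0131).

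Of 4 metabotropic glutamate receptor genes tested beside Grm8, Grm4 was higher and Grm5 lower. Grm4, like Grm8 a group III receptor, was at 40.1 and 35.8 against 15.8 and 16.1 CPM, a difference of 1.30 ± 0.17 (adjusted p = 0.00291 in edgeR). Grm5, a postsynaptic group I receptor, was at 95.01 and 87.4 against 352 and 374 CPM, a difference of -1.95 ± 0.11 (adjusted p = 4.15e-05). With the library as a block Grm3 and Grm7 were lower as well. None of 11 GABA-A receptor subunit genes was called in edgeR, and with the library as a block Gabrb1, Gabrb2 and Gabrg1 were lower. Of 10 genes of neuronal maturation, the synaptotagmin gene Syt1 was higher by 0.44 ± 0.09, joined by Map2 with the library as a block, and Rbfox3, which encodes NeuN, was lower, with a difference of -0.58 ± 0.13 that did not pass with the 7 genes at 0 in both classes (adjusted p = 0.251 in edgeR). None of 3 opioid and dopamine receptor genes tested was called, and of 4 genes of intercalated amygdala cells Meis2 was higher.

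Markers of MGE interneurons were lower in 7 of 8 cases, with a median difference of -1.84, and of striatal projection neurons in 7 of 13, with a median of -1.26. Since Lhx6, Isl1 and Drd2 had to be absent from members but not from the other cells, this direction follows in part from the rule. Sox6 stood at 157 and 107 against 532 and 486 CPM and Maf at 32.8 and 52.4 against 151 and 143 CPM, both transcription factor genes of the MGE lineage. Sst, the somatostatin gene, missed the threshold and passed as lower with the library as a block (adjusted p = 3.77e-15), at 68.9 and 33.2 against 131 and 98.7 CPM. With the 7 genes at 0 in both classes, without the block, Sst differed by only -0.08 (adjusted p = 0.971 in edgeR). Sox6 still differed there by -1.56, Maf by -1.63, Ebf1 by -2.17 and Foxp1 by -0.87, all past the threshold. Rarb, a retinoic acid receptor gene of striatal neurons, was at 114 and 83.0 against 218 and 218 CPM, and its call was lost there (adjusted p = 0.587 in edgeR). Six3 was the 1 higher gene of the striatal list, at 189 and 153 against 76.9 and 110.4 CPM and 0.92 ± 0.18 (adjusted p = 0.0243 in edgeR), and it did not pass there either (adjusted p = 0.208).

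CGE markers were split. Adarb2 at chr13:8202526-8768762 was at 3664 and 4401 against 1321 and 1345 CPM, a difference of 1.64 ± 0.10 (adjusted p = 5.37e-05 in edgeR), and Scgn, the secretagogin gene known from olfactory bulb and CGE interneurons, was higher on 10 and 8 UMIs in members. Nr2f2, a nuclear receptor gene of the CGE, was lower at 62.2 and 45.4 against 90.7 and 90.2 CPM, and its paralogue Nr2f1 at 57.5 and 62.0 against 104 and 113 CPM. Npas1 was lower too. The calls of Scgn and Nr2f2 were lost with the 7 genes at 0 in both classes (adjusted p = 0.172 and 0.149 in edgeR), whereas Nr2f1 kept its call (adjusted p = 0.00832).

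Some markers of other cell types differed as well. Of 9 excitatory neuron markers, Tle4 was higher and none was lower. Tle4 stood at 306 and 406 against 222 and 226 CPM, and its level was highest in cluster 12, as given above. Of 8 radial glia markers, Sox2 and Fabp7 were higher. Fabp7 was at 479 and 499.7 against 351 and 276 CPM (adjusted p = 0.0222 in edgeR), and it did not pass without cells scored as doublets. The 8 markers summed to 981 and 935 CPM in members and 711 and 615 CPM in other inhibitory cells, and the part of radial glial RNA was not tested. None of 7 cycling, 3 mural, 5 erythroid, 3 oligodendrocyte precursor and 4 Cajal-Retzius markers tested was called. Of 7 microglial markers P2ry12 was lower, and of 5 endothelial markers Cldn5 and Kdr were lower. The endothelial markers summed to 12.7 and 22.7 CPM in members and 72.5 and 62.6 CPM in other inhibitory cells, and the microglial markers to 24.8 and 53.3 CPM and 58.4 and 109 CPM. With the library as a block 4 of 5 erythroid, 4 of 7 microglial, 3 of 5 endothelial and 2 of 4 Cajal-Retzius markers were lower in members, as was Neurod6, while 4 of 8 radial glia markers and the mural gene Rgs5 were higher. None of these markers was at 0 in both libraries of either class. The 5 haemoglobin and erythroid markers summed to 4318 and 8966 CPM in members and 7177 and 10648 CPM in the others, and the part of such RNA in the results was not tested.

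Against striatal-type cells, the members had more Erbb4, Adarb2, Etv1 and Sp8 and less Ebf1, Foxp1, Rarb and Bcl11b. Of 11289 genes tested, 379 (3.36%) were higher and 329 (2.91%) lower in members (edgeR, adjusted p under 0.05), and 580 (5.14%) and 478 (4.23%) with the library as a block. The largest rises were Elfn1, Unc5c, Il1rapl2, Cpne4 and Sdk2. Elfn1, encoding a postsynaptic organiser, stood at 26.8 and 26.2 CPM in members against 2 and 2 UMIs in striatal-type cells, too few for a fold (adjusted p = 7.42e-05). Unc5c was at 772 and 723 against 33.7 and 48.4 CPM, a difference of 4.22 ± 0.17 (adjusted p = 6.77e-07). Sdk2, a sidekick adhesion gene, was at 209 and 279 against 21.2 and 25.9 CPM, and Cpne4 was at 13.6 and 18.7 CPM in striatal-type cells.

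Ebf1 was the deepest fall, at 110.4 and 66.4 CPM in members against 2108 and 2136 CPM in striatal-type cells, a difference of -4.54 ± 0.20 (adjusted p = 8.55e-07 in edgeR). The noncoding gene Gm12158, which overlaps Ebf1 on the opposite strand, Ikzf1, the neuropeptide gene Nts and the zinc-finger gene Zfp503 followed. Zfp503 was at 12.7 and 5.24 against 134 and 116 CPM, and Nts had 4 and 0 UMIs in members. Of 12 striatal markers tested 9 were lower and none was higher, a direction tied to the rule, since it keeps Isl1 and Drd2 apart between these classes. Foxp1 was at 1951 and 1749.6 CPM, Rarb at 569.5 and 638 CPM and Bcl11b at 1469 and 1717 CPM in striatal-type cells. In members Bcl11b still stood at 553 and 612 CPM. Six3 did not pass, with 189 and 153 CPM in members and 140.3 and 190.1 CPM in striatal-type cells, whose values overlapped.

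Some transcription factors of the dorsal lineage were lower in striatal-type cells. Etv1 was at 14.4 and 26.7 CPM in striatal-type cells, a difference of 3.19 ± 0.21 (adjusted p = 8.97e-06 in edgeR), and Sp8 at 5.67 and 10.2 CPM, a difference of 2.93 ± 0.27 (adjusted p = 9.68e-05). Pax6 and Vax1 were higher as well, making 4 of 11 tested. Meis1 was higher by 0.94 ± 0.15. Meis2 stood at 4328 and 3766 CPM in striatal-type cells, a difference of 0.26 ± 0.10 that missed the threshold (adjusted p = 0.208) and passed with the library as a block (adjusted p = 0.0142). Foxp4 was higher by 1.14 ± 0.17, and Tshz2, at 424 and 496 CPM in striatal-type cells, differed by -1.58 ± 0.14. Of 4 general GABAergic genes, the homeobox gene Dlx2 was higher, by 1.27 ± 0.17, and none was lower.

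Receptors also differed from the striatal type. Erbb4 at chr1:68031884-69108576 was at 5360.0 and 5928 CPM in members against 563 and 753 CPM, a difference of 3.13 ± 0.14 (adjusted p = 8.55e-07 in edgeR). Robo1 was lower, at 1219 and 1140.0 CPM in members against 3593 and 4074 CPM in striatal-type cells. The netrin receptor gene Dcc was lower at 1590.4 and 1902 against 3274 and 3853 CPM, while Robo2 was higher by 0.62 ± 0.09 and Epha5 by 0.65 ± 0.13. With at least 2 UMIs each of Tshz1 and Pbx3 required of members, Epha5 differed by only 0.09 (adjusted p = 0.827 in edgeR). Of 18 guidance receptors tested 4 were higher and 6 lower. The metabotropic receptor genes Grm5 and Grm7 differed by -2.13 ± 0.12 and -1.17 ± 0.11, and Adarb2 by 3.09 ± 0.12. Oprm1, the mu-opioid receptor gene listed for intercalated amygdala cells, was at 22.7 and 29.7 against 94.5 and 102 CPM, a difference of -1.90 ± 0.17 (adjusted p = 7.42e-05).

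Against CGE-type cells, the members differed in Meis2, Unc5c and Robo2, which were higher, and in Nr2f1, Nr2f2 and Htr3a, which were lower. Of 9986 genes tested, 268 (2.68%) were higher and 193 (1.93%) lower (edgeR, adjusted p under 0.05), and 505 (5.06%) higher and 348 (3.48%) lower, 853 in all, with the library as a block. Of 5 CGE markers tested 4 were lower, a direction that the absence of Prox1 in members fixes in part. Nr2f2 stood at 62.2 and 45.4 against 315 and 303 CPM, a difference of -2.48 ± 0.16 (adjusted p = 1.94e-05), and Nr2f1 at 57.5 and 62.0 against 258 and 270.4 CPM. Htr3a, the ionotropic serotonin receptor gene of CGE interneurons, had 5 and 2 UMIs in members and stood at 36.9 and 53.7 CPM in CGE-type cells. St18, a zinc-finger gene, was at 16.7 and 20.1 against 294 and 329 CPM, a difference of -4.06 ± 0.17 (adjusted p = 1.03e-06), and the noncoding genes Gm29683, Sfta3-ps and Gm26911 were the other deepest falls.

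Adarb2 was at 3664 and 4401 CPM in members and 5146 and 5319 CPM in CGE-type cells, a difference of -0.35 ± 0.11 that missed the threshold (adjusted p = 0.15 in edgeR) and passed as lower with the library as a block (adjusted p = 0.000801). Sp8 was at 52.9 and 66.4 CPM in members and 80.0 and 47.2 CPM in CGE-type cells, which overlap (adjusted p = 0.961). Meis2 was at 1428 and 1217 CPM in CGE-type cells, a difference of 1.88 ± 0.13 (adjusted p = 1.94e-05). Foxp4 differed by 2.19 ± 0.22 and Etv1 by 1.13 ± 0.18. In the lists, 2 of 7 TALE genes and 2 of 11 dorsal lineage genes tested were higher and none was lower.

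Cpne4 was again among the largest rises, at 7.19 and 2.44 CPM (8 and 3 UMIs) in CGE-type cells and a difference of 5.43 ± 0.28 (adjusted p = 3.03e-06 in edgeR). The other 4 largest rises had at most 3 UMIs in either library of CGE-type cells, so their folds are not given. Rgs5, a mural cell gene, had 0 and 1 UMIs there against 80 and 24 UMIs in members. Gpc5, a glypican gene, had 3 and 0 against 29 and 79 UMIs, Il1rap 2 and 0 against 42 and 30 UMIs and Dkk2 2 and 1 against 35 and 22 UMIs. Among members Rgs5 stood at 5.79 and 3.82 CPM in cluster 10, 0 and 5.64 CPM in cluster 12 and 139 and 47.3 CPM elsewhere, so it was highest outside the 2 main clusters. Unc5c was higher by 2.98 ± 0.35 and Robo2 by 1.14 ± 0.12, whereas Erbb4 was lower, at 8924 and 8859 CPM in CGE-type cells and -0.63 ± 0.10 (adjusted p = 0.00358). Six3 was higher than in CGE-type cells by 1.96 ± 0.18, Rarb by 1.96 ± 0.23, Oprm1 by 2.75 ± 0.43 and Syt1 by 1.30 ± 0.15. Dlx2 was lower, at 104 and 85.6 against 155 and 154 CPM, and Sox6 differed by -1.68 ± 0.21.

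**Figure D4:**
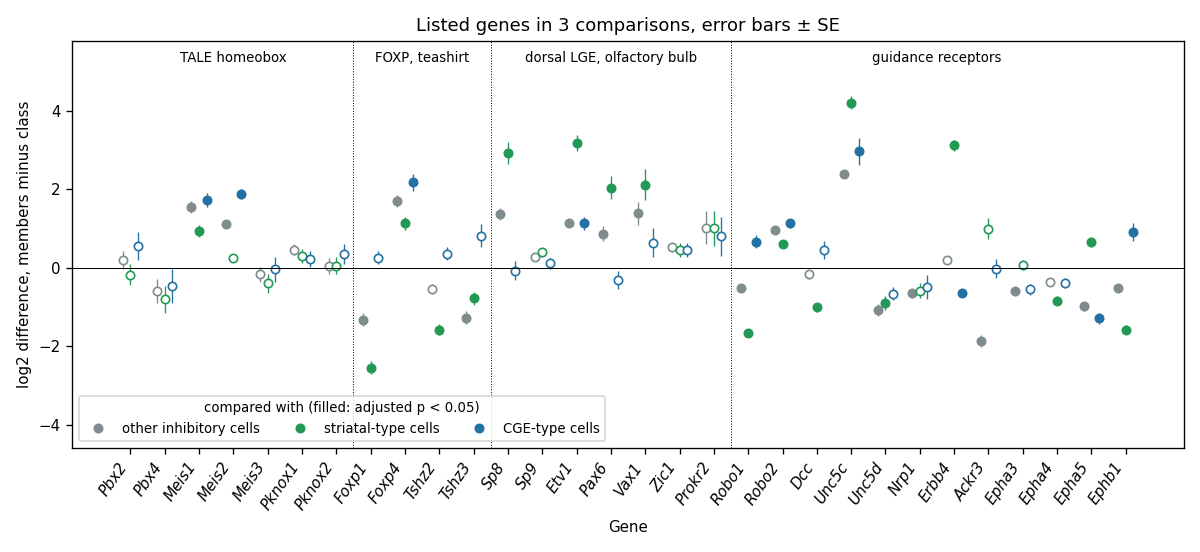
Log2 differences (members minus class, ± SE) of TALE, FOXP and teashirt, dorsal LGE and guidance receptor genes against other inhibitory (grey), striatal-type (green) and CGE-type cells (blue), with filled symbols for adjusted p under 0.05. Meis1, Foxp4, Etv1, Robo2 and Unc5c are filled and above 0 in all 3 comparisons, which share the members' sums, while Erbb4 and Robo1 change sign between the striatal and CGE references.

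The order of levels across classes differed by gene. For Meis2 the members at 4954 and 4592 CPM were followed by striatal-type cells at 4328 and 3766 CPM, CGE-type cells at 1428 and 1217 CPM and MGE-type cells at 506 and 487 CPM. For Erbb4 the order was MGE type at 9013 and 10568 CPM, CGE type at 8924 and 8859 CPM, members at 5360.0 and 5928 CPM and striatal type at 563 and 753 CPM, and the MGE and CGE values lay nearer to each other than to the members. For Adarb2 the members lay below the CGE type and above the MGE type, at 680.3 and 421 CPM. For Etv1 the members at 185 and 180.0 CPM were highest, and the CGE-type values of 101 and 69.2 CPM overlapped the MGE-type values of 75.0 and 91.5 CPM.

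Against all other passing cells, the members had more of the general inhibitory genes and less of the excitatory, cycling and vascular ones. Of 18144 genes tested, 1028 (5.67%) were higher and 1471 (8.11%) lower (edgeR, adjusted p under 0.05), with a median difference of -0.08 over all genes. All 4 GABAergic genes tested were higher, a direction tied to the inhibitory genes of the rule. Slc32a1, the vesicular GABA transporter gene, was at 54.9 and 44.6 against 13.6 and 12.96 CPM and Dlx2 at 104 and 85.6 against 34.6 and 36.7 CPM. Of 9 excitatory markers 8 were lower and Tle4 was higher, at 306 and 406 against 134 and 130.0 CPM. The fall of the excitatory markers is tied to the rule too, which asked for inhibitory genes and for the absence of Eomes and Neurod1. Neurod6 stood at 98.4 and 118 against 436 and 407 CPM, a difference of -1.94 ± 0.11 (adjusted p = 4.79e-05).

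All 7 cycling markers were lower, with a median of -2.66, as were 5 of 8 radial glia markers, all 5 endothelial and 5 of 7 microglial markers. Since members had to lack Top2a, the direction of the cycling markers is tied to the rule. The same holds in part for the radial glia, endothelial and microglial markers, since every member had to carry inhibitory genes. The largest falls were genes of other lineages, namely Mrc1 and Pf4 of macrophages, Acta2 of mural cells, Neurog2 of excitatory progenitors and Kif4 of dividing cells. None of them had more than 6 UMIs in the members of either library. The largest rises beside C79798 were Gm28905, Gng4, Adarb2 and Cpne4. Adarb2 was at 364 and 338 CPM in all other cells, a difference of 3.55 ± 0.12 (adjusted p = 8.62e-06 in edgeR), Gng4 differed by 3.68 ± 0.22 and Cpne4 by 3.53 ± 0.09. Of 12 dorsal lineage genes tested 7 were higher and none was lower. Meis2 differed by 1.46 ± 0.10 and Erbb4 by 2.35 ± 0.09. These directions too are tied in part to the inhibitory genes of the rule, which the reference cells did not have to carry. Against CGE-type cells 2 of 11 dorsal lineage genes were higher and Erbb4 was lower, as given above.

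Members with and without a Grm8 UMI were described side by side, a split chosen after the values had been seen and carried without a test. Of the 492 members, 176 (88 in each library) had Grm8 and 316 did not, with median depths of 4898 and 4469 UMIs. Of those with Grm8, 84.7% lay in cluster 10 and 1.70% in cluster 12, against 35.4% and 30.1% of those without, and the clustering itself had read Grm8. Unc5c stood at 1817 and 1463 CPM with Grm8 and 209 and 245 CPM without, and Cpne4 at 468 and 451 CPM with it and 48.4 and 57.5 CPM without. Elfn1 stood at 59.2 and 60.0 CPM with Grm8 and 9.27 and 4.32 CPM without, so that all 3 genes were higher with Grm8 in both libraries. Among bulb lineage genes Etv1 was at 323 and 247 against 111 and 137 CPM and Zic1 at 111 and 100.1 against 35.0 and 38.8 CPM, while Sp8 at 99.3 and 71.2 against 27.8 and 63.3 CPM was less clearly parted.

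Other genes stood higher in members without Grm8. Tle4 was at 164 and 140.1 CPM with Grm8 and 382 and 578 CPM without, Six3 at 89.8 and 62.3 against 242 and 211 CPM and Tshz2 at 36.3 and 57.8 against 239.9 and 179.8 CPM. Of the striatal genes, Ebf1 was at 7.64 and 8.90 CPM with Grm8 and 166 and 104 CPM without, and Rarb at 30.6 and 26.7 and 159.6 and 119 CPM. Foxp2, Meis2 and Sox2ot differed little by this split, with Foxp2 at 1924 and 2362 CPM with it and 2086 and 2069 CPM without, and Meis2 at 5289 and 4837 against 4773 and 4433 CPM. Fabp7 was higher with Grm8, at 961 and 941 against 219 and 214 CPM, although it was low in members of cluster 10 (225 and 159 CPM). As given above, it was far higher in members outside the main clusters, of which 28.6% were scored as doublets. The part of those members in this difference was not tested. Of the members with Grm8, 9.09% were scored as doublets, and of those without, 8.23%.

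**Figure D5:**
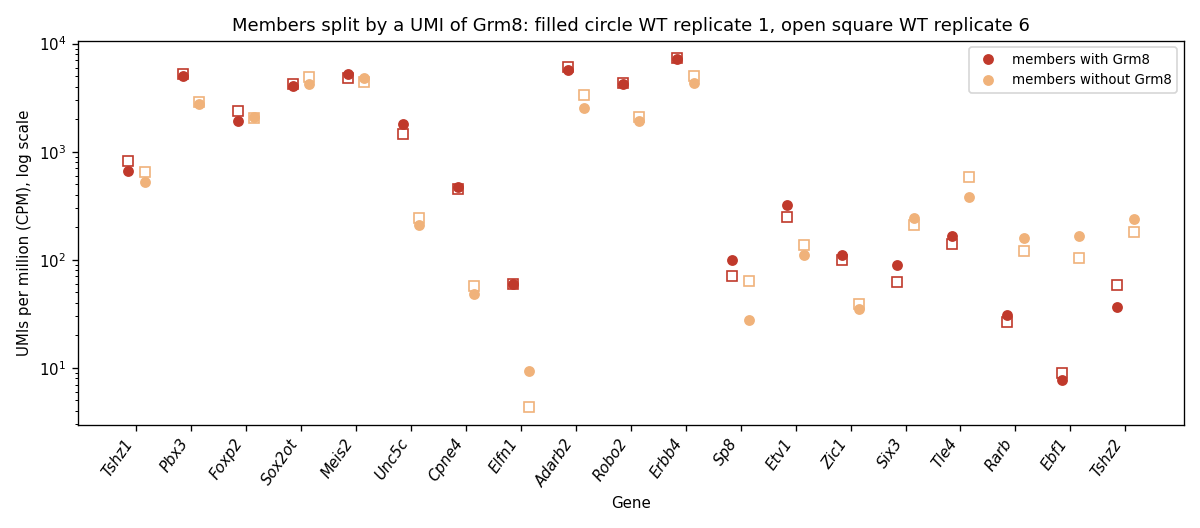
Levels of 19 genes in CPM (log axis) in the 176 members with a Grm8 UMI and the 316 without, with WT replicate 1 as filled circles and WT replicate 6 as open squares. Unc5c, Cpne4 and Elfn1 are high with Grm8, Ebf1, Rarb, Tshz2, Six3 and Tle4 are high without it, and Foxp2, Meis2 and Sox2ot lie close together.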

How the data were processed

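Single-cell libraries of 2 WT embryos were analysed. The authors made the count files with Cell Ranger 7.0.0 on mm10, per the labels, and the deposited matrices hold raw UMI counts of 32285 genes per called cell. Their annotation, and whether introns and strand were counted, are not given in the sources used here. Members and gene lists were chosen with earlier results of these data known. UMIs were summed per library and class and compared in edgeR 4.0.16 (R 4.3.3) by the quasi-likelihood test, with TMM scaling. Benjamini-Hochberg adjustment was over all genes that passed filterByExpr. A prior count of 0.5 entered only the log2 levels behind the differences within each library and the correlations given below. The 13 rule genes and 3 given markers were left out of the calls. Each comparison shared its libraries between the classes, and deviations of the same library correlated at r = 0.223, 0.232, 0.262 and 0.113 across genes, and the library was therefore added as a block in a further fit. The text names, in each direction, the 10 called genes with the largest log2 difference against other inhibitory cells and 5 in the other comparisons, at a mean of 20 CPM or more in the higher class, beside genes of the 24 pathway and marker lists. Some genes of these lists are not reported here. On simulated counts, a log2 change of 2 was recovered in 99% of 100 genes against other inhibitory cells and 95% against striatal-type cells. It was recovered in 96% against CGE-type and 100% against all other cells. A change of 1 was recovered in 79%, 66%, 47% and 73%, in the same order. Only genes simulated to reach 10 UMIs or more per sum were changed. All genes had 1 dispersion, and libraries were drawn independently, without the correlation given above. The rates therefore do not cover calls that rest on fewer UMIs in a class, such as those of Cntnap3, Ikzf1, Elfn1, Htr3a and Rgs5. Clusters came from scanpy 1.11.5 (2000 variable genes, 30 components, 15 neighbours, Leiden resolution 1). Doublets were scored against 2 simulated doublets per cell, and the share marked grew with the number of called cells. Positions are from RefSeq on the mm10 assembly, where 210 of 212 named genes matched. Alternatives were DESeq2 1.42.0, other scaling, filters, cell thresholds and reference classes.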

Additional observations from a re-analysis of the deposited data

How the results depend on the processing

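Of 120 called values of named genes that were put to the alternatives, 97 stayed past the threshold under every alternative that gave a value, and 23 missed it under at least 1. Some calls named above were not among these 120. They include Nrp1, Epha3, Ephb1, Npas1, P2ry12 and Kdr against other inhibitory cells, and Pax6 and Vax1 against striatal-type cells. DESeq2 lost 7 of the 120, while DESeq2 size factors, no TMM, no filter on low counts and the library block lost 0. Stricter cells (3000 to 30000 UMIs, under 5% mitochondrial) lost 12 of 119 and a reference with the 7 genes at 0 lost 12 of 50. The calls lost under at least 1 alternative were, against other inhibitory cells, those of Calb1, Cldn5, Epha5, Fabp7, Grm4, Ikzf1, Nr2f2, Pax6, Rarb, Rbfox3, Robo1, Scgn, Six3, Syt1, Unc5d and Vax1. Against striatal-type cells it was Epha5, against CGE-type cells Dlx2, Erbb4, Gpc5, Grm5 and Robo1, and against all other cells Dlx2. Sp8 against CGE-type cells turned to 0.42 (adjusted p = 0.619 in edgeR) with the stricter cells, and its cause was not tested.

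With the library as a block, which pairs classes of the same embryo, 980 genes were called against other inhibitory cells and 853 against CGE-type cells. No listed gene lost its call with the block, while others gained one. Without a filter on low counts the same 2 counts were 891 and 798. DESeq2 called 405 genes against striatal-type cells and 250 against CGE-type cells, where the main counts were 708 and 461. Cells thinned to 1500 UMIs gave 307 against other inhibitory cells, 457 against striatal-type cells and 1033 against all other cells. The stricter cells gave 282 against CGE-type cells, and other inhibitory cells with any Top2a, Eomes and Neurod1 gave 1042. The members' share of passing cells was 1.78% with 2 or more UMIs of Tshz1 and of Pbx3, 2.71% with stricter cells, 2.44% with an inhibitory sum of 5 or more and 6.03% of cells without excitatory-neuron UMIs. It ranged from 2.86 to 3.16% when a library was left out. Leaving out a library leaves 1 against 1 with no test, and all 120 called values had the same sign in both libraries. Depth limits genes of few UMIs.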
